A study of Mus musculus with 6 samples.

Results

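Egr, Fos and Jun genes and their early-response partners were followed in Flk1-positive cells sorted from differentiating mouse embryonic stem (ES) cells. The set holds 10 genes, Egr1, Egr2, Egr3, Fos, Fosb, Jun, Junb, Ier2, Ier3 and Dusp1, chosen by name. They were read through every probe set whose array annotation gives exactly one of those symbols, which made 13 probe sets of the 45101 on the array. Egr2, Egr3 and Jun had 2 probe sets each and the other members 1 each. All 13 have a value on all 6 arrays, and no filter on low values was applied.

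Immediate-early genes are transcribed within minutes of a growth factor, stress or mechanical signal and need no new protein for it. In the classical route ERK phosphorylates ETS-family ternary complex factors, which sit with SRF at a CArG box, while kinases downstream of ERK and p38 act on CREB. The products include EGR zinc-finger factors, the Fos and Jun subunits of the dimeric factor AP-1, and feedback inhibitors such as the phosphatase DUSP1. These genes are also known to respond when tissue is dissociated and sorted, and Egr1 and Fos are responsive to FGF signalling in early embryonic cells.

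The cells came from 1 line, ER71 A17C, made in 129P2/Ola mouse ES cells with an Etv2 cassette that doxycycline turns on. Etv2 (also called ER71) is an ETS factor required for endothelial and blood development. Embryoid bodies were grown in hanging drops, and Flk1-positive cells were collected at day 3.5. In 3 induced samples doxycycline at 0.5 microg/ml was present for 12 hours from day 3, and 3 samples of the same line were untreated controls according to the series' design text, although the treatment field carries the doxycycline text on all 6. Controls therefore share the cassette, and what doxycycline does by itself and what Etv2 does cannot be told apart. The array reads a mixture of sorted cells, in which fewer cells expressing a gene and less RNA per cell cannot be told apart.

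Etv2 stood at 9.92, 8.59 and 10.71 in controls 1, 2 and 3, against 13.27, 13.28 and 13.36 in induced samples 1, 2 and 3. The induced samples lay wholly above, at a log2 fold change of 3.56 ± 0.46 (SE). Limma's unadjusted p for Etv2 was 7.6e-05, and its adjusted p over all probe sets was 0.9998. Kdr, the gene of Flk1 and so of the sort itself, ran from 8.40 in control 2 to 10.97 in control 3. Array medians lay between 7.34 and 7.40, the highest on induced 2. Of 9 mesoderm markers 8 were measured, with T not analysed here, and all 8 lay above the median level of all probe sets, 7.35. Their mean without Etv2 was 12.51, 11.32 and 12.76 in controls 1, 2 and 3, against 12.02, 11.80 and 12.45 in induced samples 1, 2 and 3. Markers of endothelium and blood were mostly dim, with 1 of 5 above that median in each list. Above it were also 6 of 7 pluripotency markers, 4 of 5 endoderm markers and 3 of 5 fibroblast markers.

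Promoter sequence is shown for 3 members whose windows carry elements of the signalling route described above. RefSeq windows of the GRCm38.p6 build, from 250 bases before to 50 after a start site, were matched for 7 of the 10 members in 11 windows, since Egr2 has several annotated starts. The Egr2 window lies at chr10:67537619-67537918 on the plus strand, and its capitals mark a CArG box, the SRF site. The Fos window lies at chr12:85473640-85473939 on the plus strand, and capitals mark TGACG, the core of a CREB site, and GGAAG, an ETS core, on either strand. The Dusp1 window lies at chr17:26508423-26508722 on the minus strand, with the full palindrome TGACGTCA in capitals.
Egr2: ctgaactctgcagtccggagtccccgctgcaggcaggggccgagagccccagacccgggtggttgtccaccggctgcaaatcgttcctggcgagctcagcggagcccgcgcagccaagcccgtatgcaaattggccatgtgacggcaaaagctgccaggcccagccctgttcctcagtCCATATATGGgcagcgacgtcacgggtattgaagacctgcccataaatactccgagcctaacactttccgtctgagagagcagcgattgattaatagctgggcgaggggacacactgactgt
Fos: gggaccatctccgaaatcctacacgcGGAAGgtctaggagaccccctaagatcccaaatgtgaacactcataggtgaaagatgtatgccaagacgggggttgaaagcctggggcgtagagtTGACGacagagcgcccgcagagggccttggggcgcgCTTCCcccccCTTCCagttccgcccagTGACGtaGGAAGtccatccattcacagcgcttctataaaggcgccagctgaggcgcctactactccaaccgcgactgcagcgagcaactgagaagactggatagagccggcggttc
Dusp1: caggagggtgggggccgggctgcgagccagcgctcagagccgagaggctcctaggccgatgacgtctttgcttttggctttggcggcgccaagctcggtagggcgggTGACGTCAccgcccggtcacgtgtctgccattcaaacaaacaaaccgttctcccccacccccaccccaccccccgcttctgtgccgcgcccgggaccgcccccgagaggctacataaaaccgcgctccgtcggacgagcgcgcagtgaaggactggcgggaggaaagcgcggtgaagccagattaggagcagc

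Both strands were searched in all 32851 windows. A CArG box was present in 1.63% of them and in 4 of the 11 member windows, all of Egr2, of which 3 overlap and share the box printed above. TGACGTCA was present in 1.79% of windows and, among members, in Dusp1. TGACG, which is part of TGACGTCA, occurred in 20.8% of windows and in 7 member windows from 5 genes, namely Dusp1, Egr2, Fos, Fosb and Junb. The EGR site GCGNGGGCG was in 5.55% of windows and in that of Fosb. The AP-1 site TGANTCA, in 7.81% of windows, and the longer ETS site CCGGAAG, in 8.86%, were in 0 member windows. GGAAG, which lies within CCGGAAG, was in 71.4% of windows and in 5 of the 11. A match is a run of letters and not a measured site. Egr1, Egr3 and Ier2 had no window. Sequence more than 250 bases before a start was not searched, so a member without a match here may hold the element elsewhere.

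No member changed between induced and control samples at limma's adjusted threshold of 0.05. Of all 45037 probe sets tested, 0.00222% passed, which is 1 probe set, and 0 of the 13 members did. The smallest adjusted p among the members was 0.9998. Etv2, at a log2 fold change of 3.56, did not pass either. The count of 0 of 13 therefore does not show that the members were unchanged. At an unadjusted p under 0.05 limma gave 2 of 13, against 1.53% of all probe sets. Egr1 was the 1 lower, against 0.886% of all, and Ier3 the 1 higher, against 0.646%. That count of 2 was 1 without control 1, control 3 or induced 2, 4 without control 2, 0 without induced 1 and 0 without both arrays of number 1. Log2 fold changes of the members ran from -0.85 to 0.38 with 6 below and 7 above 0, and their median was 0.0095 beside 0.0029 over all probe sets. The labels do not say whether the replicates were separate cultures, so every p rests on a spread among arrays that may be technical in part.

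**Figure D1:**
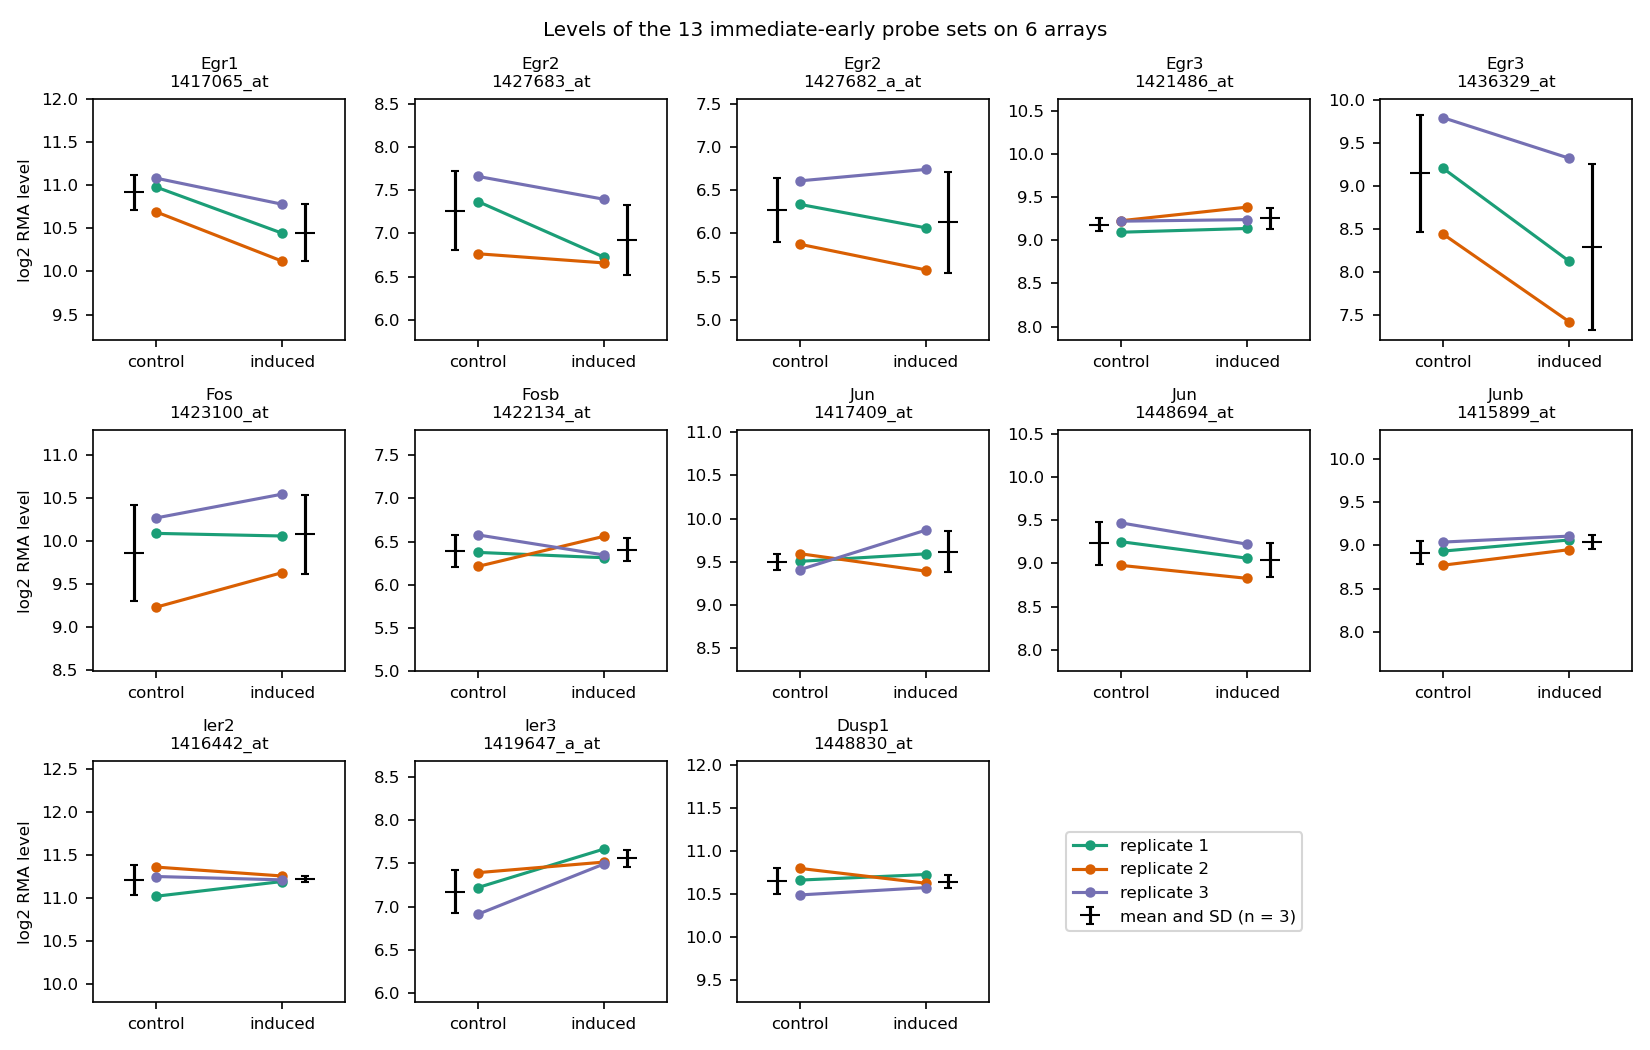
Log2 RMA level (vertical axis, every panel spanning the same number of log2 units) of each of the 13 probe sets in control and induced samples. Coloured lines join arrays of the same replicate number, and black marks give the group mean with its SD over 3 arrays. Egr1 runs downward in all 3 pairs and Ier3 upward, while Egr3 differs between its 2 probe sets and Fos is spread mainly by replicate number.

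Egr1 encodes a zinc-finger factor that is among the most responsive ERK targets. Its probe set stood at 10.98, 10.69 and 11.08 in controls 1, 2 and 3, against 10.44, 10.12 and 10.78 in induced samples 1, 2 and 3. The 3 induced values were each below the control of the same number, yet the groups overlapped, since induced 3 lay above control 2. The control mean was 10.92 ± 0.20 (SD, n = 3) and the induced mean 10.45 ± 0.33. This made a log2 fold change of -0.47 ± 0.18 (SE), a ratio of 0.722, whose 95% interval ran from -0.88 to -0.058, and limma's unadjusted p was 0.0305. Permuting the 6 labels exactly gave a two-sided p of 0.2, where 0.1 is the smallest it can give.

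Egr1 differed by -0.53, -0.57 and -0.30 in pairs 1, 2 and 3. Arrays of the same number were treated as pairs because their deviations from the group means correlated across all probe sets. These correlations were weak, at r = 0.25, 0.17 and 0.23 for numbers 1, 2 and 3. Some arrays of unlike number reached r = 0.18 and 0.21, so the pairing is uncertain. With the replicate number as a block the SE was 0.092 and limma's unadjusted p 0.0019. The adjusted p over all probe sets was 0.9997, so Egr1 was not called with the block either. Without induced 2 the log2 fold change was -0.31, and without induced 3 it was -0.64.

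Egr3, a close relative of Egr1, gave 2 different pictures through its 2 probe sets. The brighter, 1421486_at, stood at 9.09, 9.23 and 9.22 in controls 1, 2 and 3, against 9.14, 9.39 and 9.24 in induced samples. The other, 1436329_at, stood at 9.20, 8.44 and 9.79 in controls, against 8.13, 7.43 and 9.32 in induced samples. The first was nearly flat over the 6 arrays, with a range of 0.29, while the second spanned 2.36 and had a larger SD than 99.9% of all probe sets.

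The Egr3 log2 fold change was 0.073 ± 0.090 (SE) through 1421486_at and -0.85 ± 0.50 through 1436329_at. Through the latter the induced sample was lower in every pair, by -1.08, -1.01 and -0.47 in pairs 1, 2 and 3, although induced 3 lay above controls 1 and 2. Its unadjusted limma p was 0.129 without the block and 0.000588 with it, at an adjusted p of 0.9997. The fold change through 1436329_at was -0.42 without induced 2, -0.53 without control 3, -0.51 with array quality weights and -1.37 without induced 3, on the log2 scale. After each was centred on its own mean, the 2 probe sets differed by 0.75 on average over the 6 arrays. The sources used here do not say which transcripts each probe set reads, and the direction for Egr3 depends on the probe set.

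Egr2, the third EGR factor measured, was dim, and its 2 probe sets ran together more closely, at an average centred difference of 0.16. The brighter, 1427683_at, stood at 7.37, 6.76 and 7.66 in controls 1, 2 and 3, against 6.72, 6.66 and 7.40 in induced samples. The dimmer, 1427682_a_at, stood at 6.34, 5.88 and 6.61 in controls, against 6.07, 5.58 and 6.74 in induced samples. In each group both were lowest in the array of number 2 and highest in that of number 3.

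The Egr2 log2 fold change was -0.34 ± 0.27 (SE) through 1427683_at, negative in all 3 pairs. That value was -0.14 without control 3, -0.20 without induced 2, -0.57 without induced 3 and -0.59 without control 2. It was -0.15 ± 0.30 through 1427682_a_at, where pair 3 had the opposite sign at 0.13. With the block limma's unadjusted p was 0.0284 for the former and 0.235 for the latter.

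Fos, which encodes the c-Fos subunit of AP-1, differed more between replicate numbers than between groups. It stood at 10.09, 9.23 and 10.27 in controls 1, 2 and 3, against 10.06, 9.63 and 10.54 in induced samples. Number 2 held the lowest value of each group and number 3 the highest. The log2 fold change was 0.22 ± 0.31 (SE), with pair differences of -0.030, 0.40 and 0.28, and limma's unadjusted p was 0.508, or 0.0879 with the block. Without control 2 the log2 fold change of Fos was -0.0998 and without induced 3 it was -0.017, so its sign rested on single arrays. Fosb, a relative of Fos, was dim at 6.21 to 6.58 in controls and 6.31 to 6.56 in induced samples, a log2 fold change of 0.018 ± 0.12.

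Jun encodes c-Jun, the usual partner of Fos, and its 2 probe sets had opposite signs. Through 1417409_at it stood at 9.50, 9.59 and 9.41 in controls 1, 2 and 3, against 9.59, 9.39 and 9.87 in induced samples. Through 1448694_at it stood at 9.25, 8.98 and 9.47 in controls, against 9.06, 8.83 and 9.22 in induced samples. The groups overlapped in both.

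The Jun log2 fold change was 0.11 ± 0.13 (SE) through 1417409_at, where pair 2 had the opposite sign at -0.20. It was -0.196 ± 0.15 through 1448694_at, negative in all 3 pairs at -0.19, -0.15 and -0.25. The latter value was -0.077 without control 3, -0.091 without induced 2 and -0.32 without control 2. With the block limma's unadjusted p for 1448694_at was 0.0481, and that for 1417409_at was 0.422. Junb encodes a Jun relative that can restrain c-Jun. It stood at 8.93, 8.77 and 9.04 in controls 1, 2 and 3, against 9.06, 8.95 and 9.11 in induced samples. Its differences were positive in all 3 pairs with a log2 fold change of 0.13 ± 0.094, and its 95% interval of -0.093 to 0.34 included 0. Without control 2 it was 0.054.

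Ier3 encodes an early-response protein that modulates cell survival and ERK activity. It stood at 7.22, 7.39 and 6.91 in controls 1, 2 and 3, against 7.67, 7.52 and 7.49 in induced samples. It was the 1 member of 13 whose groups did not overlap with induced samples above, a pattern found in 2.72% of all probe sets. No member lay wholly below, against 3.70% of all. The control mean was 7.17 ± 0.24 (SD, n = 3) and the induced mean 7.56 ± 0.094, which is 1.30-fold higher (log2 0.38 ± 0.13, SE). Limma's unadjusted p for Ier3 was 0.0190, and 0.0120 with the block. The exact permutation p was 0.1, the smallest possible. Without control 3 the log2 fold change was 0.25.

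Ier2, an early-response nuclear protein, and Dusp1, a phosphatase that switches off p38, JNK and ERK, were bright and even. Ier2 ran from 11.02 to 11.36 in controls and from 11.19 to 11.25 in induced samples, with a log2 fold change of 0.0095 ± 0.099 (SE). Dusp1 ran from 10.49 to 10.80 in controls and from 10.57 to 10.72 in induced samples, with -0.0075 ± 0.098. The 95% intervals were -0.22 to 0.24 for Ier2 and -0.24 to 0.22 for Dusp1.

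**Figure D2:**
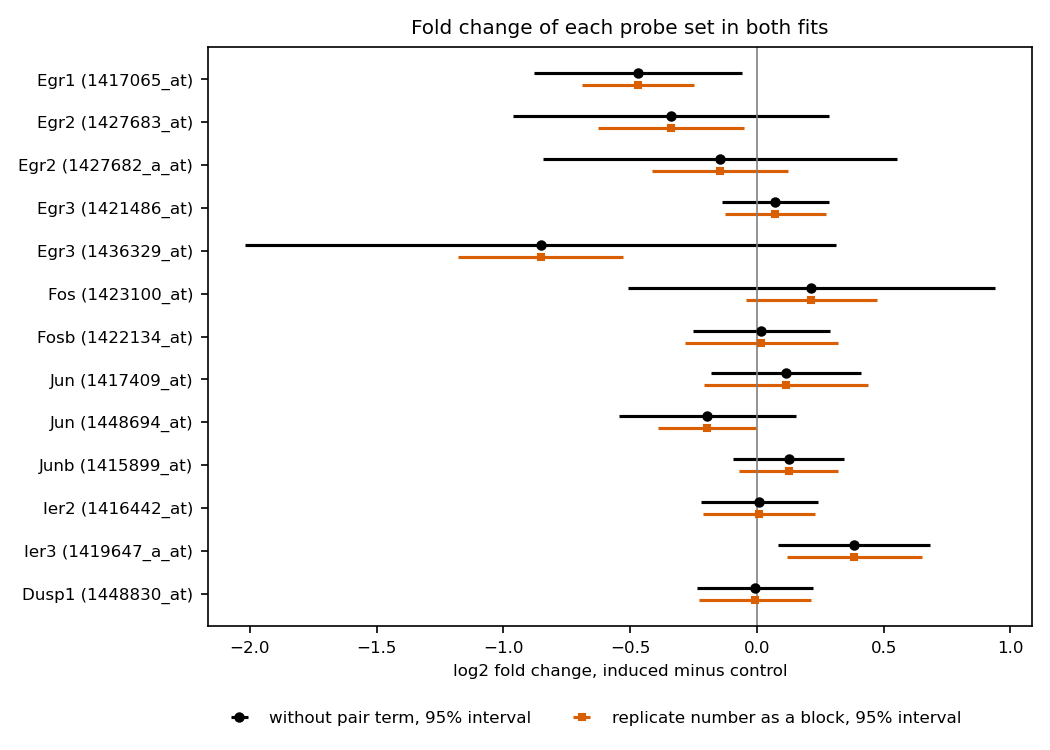
Log2 fold change, induced minus control (horizontal axis), of each probe set with its 95% interval. Black circles are from the fit without a pair term and orange squares from the fit with the replicate number as a block. The points are the same in both, and the interval of Egr3 1436329_at narrows from -2.02 to 0.31 without the block to -1.18 to -0.53 with it.

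With the block, 5 of 13 member probe sets were at an unadjusted p under 0.05 in limma, against 2.88% of all probe sets. Of these 4 were lower, namely Egr1, Egr3 1436329_at, Egr2 1427683_at and Jun 1448694_at, against 1.89% of all, and Ier3 was higher. The count was 3, 6 and 4 without both arrays of number 1, 2 and 3. None passed after adjustment, where 0% of all probe sets did. The same 4 probe sets were those lower in all 3 same-numbered pairs, beside 13.3% of all probe sets. Higher in all 3 pairs were Egr3 1421486_at, Junb and Ier3, beside 9.53% of all.

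Much of the variation of these genes lay between replicate numbers. Over the 6 arrays the median share of the sum of squares between numbers was 66.6% for the 13 members and 44.2% for all probe sets, and the share between groups was 15.9% and 10.3%. Between numbers lay 90.9% for Egr2 1427682_a_at, 89.2% for Fos and 76.8% for Jun 1448694_at. Egr1 and Ier3 had the largest shares between groups among the members, at 52.4% and 61.7%. Fosb and Jun 1417409_at lay mostly in neither, with remainders of 85.9% and 73.0%. Such shares were not particular to the members. Among feedback inhibitors, picked after their values were seen, 99.0% lay between numbers for Spry4 and 98.5% for Dusp4. Others of that list had little there, such as Dusp7 at 12.2% and Dusp16 at 17.0%.

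**Figure D3:**
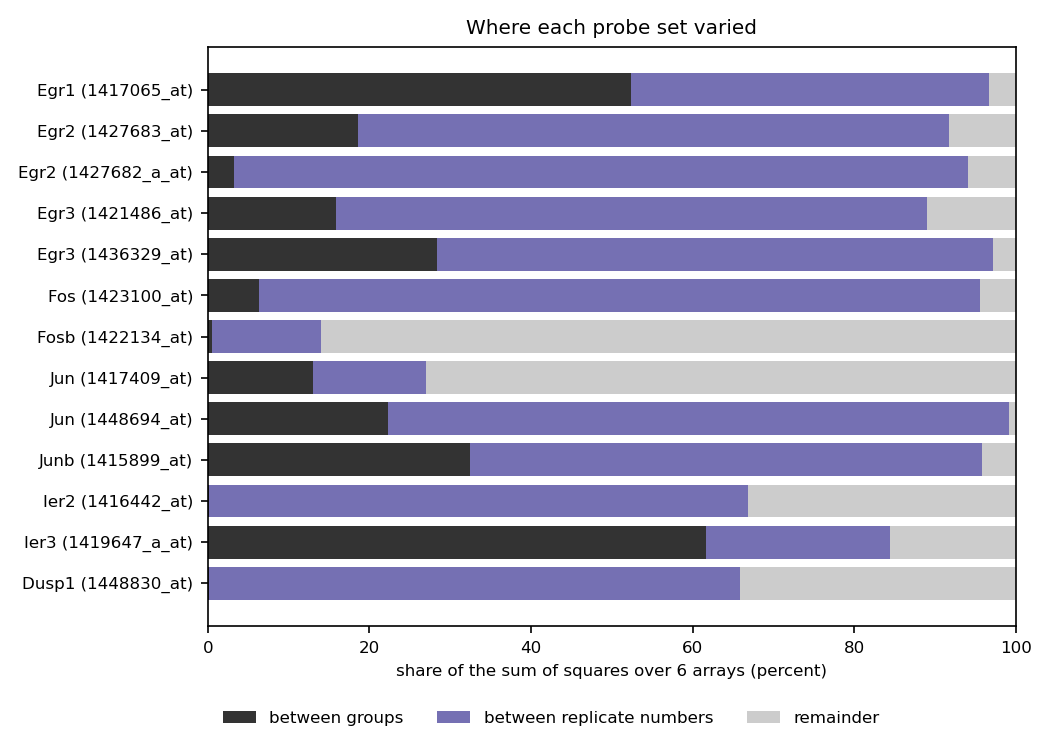
Share of each probe set's sum of squares over the 6 arrays, in percent, that lay between control and induced groups (black), between replicate numbers (purple) and in the remainder (grey). Purple is the longest segment for 9 of the 13 probe sets, while the group segment is the longest for Egr1 and Ier3.

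The replicate number was tested for each probe set with limma's moderated F-test, with the group in the fit. At the adjusted threshold 0 of 13 members passed, where 0% of all probe sets passed, and the smallest adjusted p of a member was 0.285, for Egr3 1436329_at. At an unadjusted p under 0.05 there were 6 of 13, namely Egr1, both Egr2 probe sets, Egr3 1436329_at, Fos and Jun 1448694_at, against 8.32% of all probe sets. Single arrays bore on the adjusted calls. Egr3 1436329_at passed without control 1 and without induced 1, where 0.193% and 0.235% of all probe sets passed. Without induced 2 it passed together with Fos and Egr2 1427683_at, with 2.26% of all. Without both arrays of number 1 these 3 and Egr2 1427682_a_at passed, 4 of 13 against 0.582% of all.

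The order of the numbers was shared by part of the members. Arrays of number 2 had the lowest mean level in 8 of the 13 probe sets, against 33.4% of all probe sets, and arrays of number 3 the highest in 9, against 32.4%. Number 2 was instead the highest for Egr3 1421486_at, Ier2, Ier3 and Dusp1. Averaged over both arrays of a number, Egr3 1436329_at was at 8.67, 7.93 and 9.56 for numbers 1, 2 and 3, and Fos at 10.07, 9.43 and 10.40. Kdr, the gene of the sorted protein, was at 9.79, 8.88 and 10.75, the same order. The mesoderm markers Mesp1 and Pdgfra, picked after their values were seen, were likewise lowest in the controls at number 2, at 11.30 and 9.90, and highest at number 3, at 13.05 and 11.78. This order was not particular to mesoderm markers. Endoderm markers Sox17 and Cer1, picked likewise, averaged 9.73, 8.92 and 10.71, and 8.99, 8.44 and 9.63, while Foxa2, Afp and Ttr had other orders. Pluripotency markers Nanog and Sox2, also picked so, ran in reverse, at 12.25, 12.65 and 11.91, and 10.85, 11.35 and 10.61. Klf4 of that list had the Kdr order. The part of the levels of Kdr and of these markers in the spread of Egr and Fos genes was not tested.

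**Figure D4:**
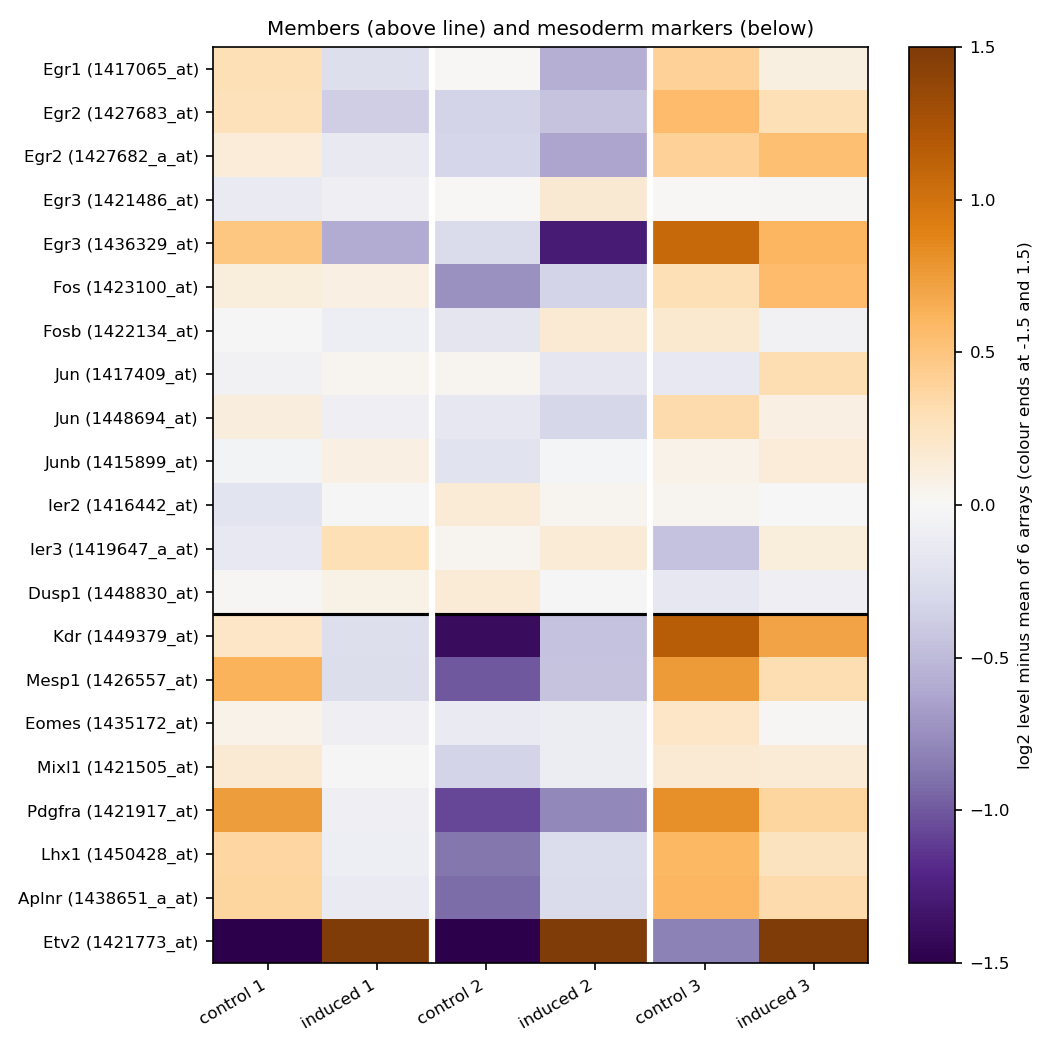
Log2 level minus the mean of the 6 arrays (colour) for the 13 member probe sets above the black line and 8 mesoderm markers below it, with arrays paired by replicate number. Both arrays of number 3 are above the mean for both Egr2 probe sets, Egr3 1436329_at, Fos, Kdr and Mesp1, and both arrays of number 2 are below it.

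The genes nearest in profile were sought for the brighter probe set of each member that had an SD of at least 0.3 over the arrays, namely Egr1, Egr2 and Fos. Likeness was the mean absolute difference of the centred log2 levels over the 6 arrays, among 18183 other genes. Nearest to Egr1 were Eef1aknmt at 0.066, 1110002L01Rik at 0.076 and Zfp583 at 0.080. Nearest to Egr2 were Zcchc12 at 0.059, Ifitm1 at 0.072 and Greb1 at 0.072. Nearest to Fos were Vax1 at 0.060, Gna14 at 0.081 and Phldb2 at 0.083.

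Other genes of the immediate-early response showed small differences between the groups, each read through its brightest probe set. Among 19 measured of 20 transcription factors 0 passed limma's adjusted threshold, 12 had a positive log2 fold change and 7 a negative one, with a median of 0.026. Atf3, a stress-responsive bZIP factor, was at 7.99, 8.02 and 7.90 in controls, against 8.11, 8.26 and 8.12 in induced samples, a log2 fold change of 0.19 ± 0.079 (SE). Nr4a1, an orphan nuclear receptor, was at 9.80, 9.98 and 10.09 in controls, against 10.15, 10.17 and 10.23, with 0.23 ± 0.093. Both had induced samples wholly above the controls, as did 2.72% of all probe sets. Their unadjusted limma p values were 0.0412 and 0.0438, and their adjusted p values 0.9998. Maff, picked after its values were seen, lay wholly below at a log2 fold change of -0.19 ± 0.081, as did 3.70% of all probe sets.

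Among 26 early-response effectors 0 passed, with 15 positive, 11 negative and a median of 0.033. Hbegf, an EGF-family ligand, was at 8.13, 8.15 and 8.10 in controls, against 8.46, 8.30 and 8.27 in induced samples. Induced samples of Hbegf lay wholly above, as did 2.72% of all probe sets. The log2 fold change was 0.22 ± 0.081 (SE) with an unadjusted limma p of 0.0295 and an adjusted p of 0.9998. Ier5l, picked after its values were seen, lay wholly below at -0.19 ± 0.084, as did 3.70% of all probe sets.

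Of 18 genes of the ERK cascade and the SRF cofactors 14 were measured and 0 passed, with 4 positive and 10 negative and a median of -0.056. Elk3 is an ETS-family ternary complex factor that binds with SRF at CArG boxes and can repress Fos and Egr1. It stood at 7.82, 7.94 and 7.25 in controls 1, 2 and 3, against 8.65, 8.32 and 8.37 in induced samples. The induced samples lay wholly above, a pattern found in 2.72% of all probe sets. The difference was 0.78 ± 0.19 (SE) on the log2 scale, a ratio of 1.72. Limma's unadjusted p was 0.0036 and its adjusted p 0.9998. The part of Elk3 in the levels of Fos and Egr1 was not tested. Elk1, Mrtfa and Crebbp of this list, picked after their values were seen, lay wholly below, as did 3.70% of all probe sets. Their log2 fold changes were -0.12, -0.197 and -0.074. The JNK and p38 list held 12 measured of 13 with 0 passing, 5 positive and 7 negative, and a median of -0.027. Its 2 brightest members, Map2k3 and Mapk14, had log2 fold changes of 0.013 ± 0.077 and -0.067 ± 0.12.

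Feedback inhibitors were split 9 and 9 over 18 measured, with 0 passing and a median of -0.0031. Log2 fold changes were 0.0014 ± 0.085 (SE) for the ERK phosphatase gene Dusp6 and 0.095 ± 0.11 for the Sprouty gene Spry2. Nab2, a corepressor that binds EGR factors and is itself an EGR target, was picked after its values were seen. It stood at 8.54, 8.38 and 8.88 in controls 1, 2 and 3, against 8.19, 8.30 and 8.41 in induced samples. Nab2 was lower in all 3 pairs, with overlapping groups and a log2 fold change of -0.30 ± 0.13, and limma's unadjusted p was 0.0574, or 0.0230 with the block.

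Genes of the heat shock response, which dissociation can raise, were listed together with other dissociation genes such as Socs3. Of 14 listed, 12 were measured and 0 passed, with a median of -0.055. The signs were 3 positive, among them Socs3 at 0.22 ± 0.16 (SE), and 9 negative. Hspa8 and Hsp90aa1, the brightest, had log2 fold changes of -0.028 ± 0.075 (SE) and 0.0041 ± 0.070. Dimmer genes of the list differed more, such as Hspa1b and Hspb1, picked after their values were seen. Hspa1b was lower in all 3 pairs at -0.35 ± 0.19, with an unadjusted limma p of 0.1025, or 0.0207 with the block. Hspb1 was higher in all 3 pairs at 0.21 ± 0.19. The mean level of this list ran from 11.90 to 11.96 in controls and from 11.85 to 11.94 in induced samples. The part of dissociation in the levels of the members was not tested.

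**Figure D5:**
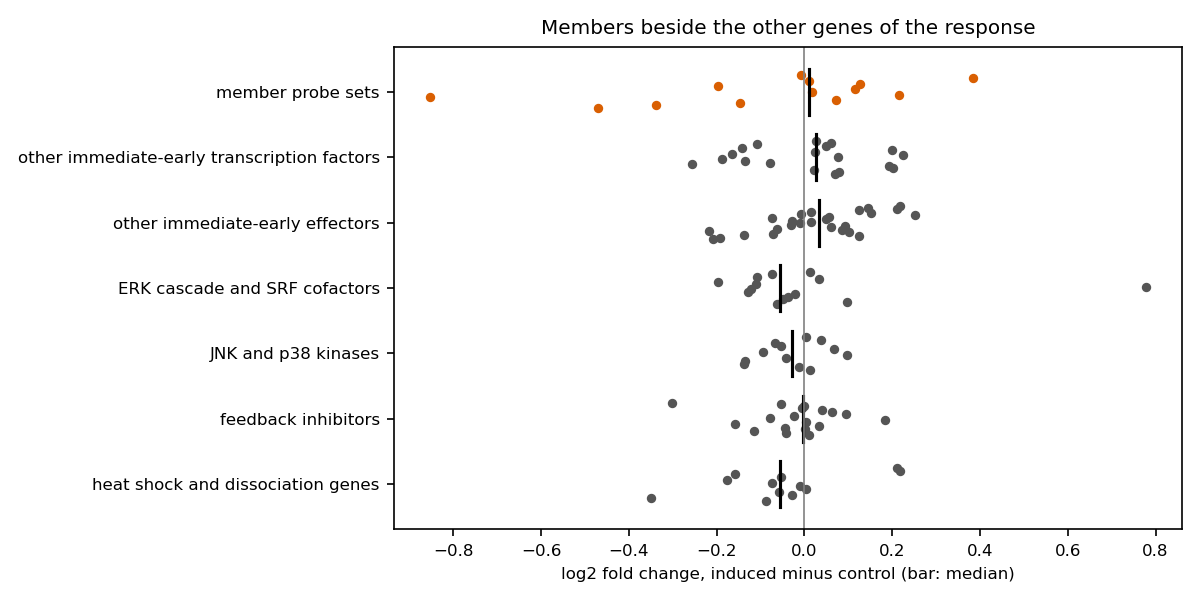
Log2 fold change, induced minus control (horizontal axis), of each member probe set (orange) and of the genes of 6 other lists (grey), with a black bar at each median. The members are drawn with every probe set, from -0.85 (Egr3 1436329_at) to 0.38 (Ier3), and the other lists with 1 probe set per gene. The point far to the right in the ERK and SRF list is Elk3 at 0.78.

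Markers of other cells that an embryoid body could hold passed in 0 cases. The range of the pluripotency list mean was 9.49 to 10.30 in controls and 9.74 to 9.96 in induced samples over 7 of 7 markers, with Nanog at -0.020 ± 0.25 (SE) and Pou5f1 at 0.23 ± 0.18. Endoderm ran from 8.39 to 9.15 and from 8.68 to 9.05 over 5 of 5, with Sox17 at 0.16 ± 0.61 and Foxa2 at 0.11 ± 0.10. Of the endoderm list 4 were positive and 1 negative. The negative one was Cer1, picked after its values were seen, at -0.34 ± 0.38. Limma's unadjusted p for Cer1 was 0.395, or 0.0460 with the block. Endothelial markers ran from 6.33 to 6.46 and from 6.44 to 6.69 over 5 of 5, with Cdh5 at 0.19 ± 0.14 and Esam at 0.068 ± 0.11. These lists are given as levels, and an array value has no true zero.

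The remaining marker lists were flat or dim. Blood markers ran from 6.52 to 6.76 in controls and from 6.49 to 6.93 in induced samples over 5 of 5, with Klf1 at 0.026 ± 0.082 (SE) and Hba-x at -0.17 ± 0.15. Fibroblast markers ran from 7.04 to 7.14 and from 7.02 to 7.19 over 5 of 5, with Dcn at 0.048 ± 0.19 and Col1a2 at -0.043 ± 0.17. The part of these cell types in the member levels was not tested.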

How the data were processed

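RNA of 6 samples, 3 per group by their titles, was measured on Affymetrix arrays. The deposited table holds log2 values per probe set, made by the authors with RMA, per the submitters' processing notes; the sources used here name no version or software. Scanner files were not analysed. After 64 Affymetrix control probe sets were left out, 45037 were tested with limma 3.58.1 in R 4.3.3 (lmFit, eBayes, two-sided, Benjamini-Hochberg over all of them). The code was tested on simulated data. Probe sets were named through the supplied GEO platform annotation, and 34945 had 1 symbol, covering 18193 genes. The precision is limited by 3 arrays per group.

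Members and lists were chosen with earlier results of these data known. The genes named are all members, Etv2, Kdr, the lowest unadjusted p under 0.05 in each list (up to 4) or else its 2 brightest genes, and the 3 nearest profiles; the text says where another gene was picked after its values were seen. A list gene without an entry in the annotation was not analysed here.

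Replicate numbers are shared by both groups in the titles. Deviations from the group means correlated over probe sets at r = 0.25, 0.17 and 0.23 for numbers 1, 2 and 3, all above 0.1, so the numbers were treated as pairs. Arrays of different numbers also correlated, at r = 0.18 for control 2 with induced 1 and r = 0.21 for control 1 with induced 3, both above the value for number 2. The block was fitted as an alternative. Other alternatives were quantile normalization, median centring, a level filter, 1 probe set per gene, array weights, a trended prior and leaving out arrays.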

Additional observations from a re-analysis of the deposited data

How the results depend on the processing

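The count of members changed between groups was 0 in all 20 alternatives, 17 of them planned and 3 added later, on having seen the data. Over all probe sets those alternatives called only 0 to 3. A count of 0 members was therefore likely at the outset and says little about them. The replicate block ended or added no call among members or lists. List genes changed stayed at 0 except for 1, Etv2, with the block and without both arrays of number 1 or of number 2, both settings added later. Member probe sets varying by replicate number stayed at 0 in the alternatives with all 6 arrays and ranged from 0 to 4 with arrays left out. Egr1, Ier3, Junb, Egr2 1427683_at, Egr3 1436329_at and Jun 1448694_at kept their sign in every alternative tried.

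Signs turned for 7 of the 13 values, none of them called, and for Egr3 only because another probe set was read. For the others the cause was not tested. Quantile normalization gave 0.045 for Dusp1 and -0.0069 for Fosb, and median centring gave -0.0083 for Ier2. Array weights gave 0.058 for Egr2 1427682_a_at and -0.025 for Fosb. Taking the most variable probe set gave -0.85 for Egr3 and -0.196 for Jun, since another probe set was read. With arrays left out the log2 fold change ranged from -0.088 to 0.075 for Dusp1, -0.45 to 0.13 for Egr2 1427682_a_at, -0.0998 to 0.44 for Fos, -0.15 to 0.14 for Fosb, -0.085 to 0.084 for Ier2 (-0.071 with the block and without both arrays of number 1) and -0.058 to 0.27 for Jun 1417409_at. Signal over background is not in the values used here, so what it limits for dim probe sets was not tested.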
